A study of Mus musculus with 9 samples.

Results

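Matricellular and adhesive matrix proteins are secreted proteins that sit among the collagen and elastic fibres of the dermis, where they bind collagen, growth factors and cell surface receptors. RNA sequencing measured the transcripts of 9 such genes, Coch, Abi3bp, Postn, Tnc, Tnxb, Fn1, Thbs1, Thbs2 and Spp1, in mouse skin that was left unirradiated or exposed repeatedly to ultraviolet B (UVB). They are 9 of the 57180 genes in the deposited table, found there by symbol, and all 9 passed the filter on low counts. The 9 genes were chosen by function with earlier fits of these same libraries known, in which Coch and Abi3bp had stood out in UVB_hCOL3A1 against UVB_Saline skin. That contrast is therefore given here as a description. In it the UVB_hCOL3A1 libraries lay above all UVB_Saline libraries for Coch, Abi3bp, Postn, Tnxb, Fn1 and Thbs2, as they did for 8.95% of all genes tested. All UVB_Saline libraries lay below all unirradiated ones for Coch, Abi3bp and Tnxb (6.61% of all genes). All UVB_hCOL3A1 libraries lay above the unirradiated ones for 7 of the 9 genes (10.7% of all genes). None of these differences from unirradiated skin passed the adjusted test in the main edgeR fit of all 9 libraries, though some passed in alternative fits.

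The skin came from BALB/c nude mice, which lack a thymus and most of their hair, and the 9 libraries form 3 groups of 3. NoUVB skin was not irradiated, and the labels name no injection or saline for it. UVB_Saline and UVB_hCOL3A1 skin had UVB on alternate days for 8 weeks, rising from 60 mJ/cm2 (1 minimal erythemal dose) to 240 mJ/cm2 (4 minimal erythemal doses), and collection is given as day 28 with no statement of when that count began. The labels add saline to the first irradiated group and hCOL3A1 to the second, which is, going by the series title, type III collagen given as mRNA. No irradiated group with the carrier alone is among these samples, and the dose, carrier or route of the mRNA is not given in the sources used here. Neither is the age of the mice or the animal behind each library, so the p-values reflect variation among these 9 samples that may be technical.

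As background, Fn1 encodes fibronectin, a fibril-forming glycoprotein that cells grip through integrins and on which collagen assembly begins. Periostin (Postn) and the tenascins (Tnc, Tnxb) bind collagens and shape how fibrils are spaced and crosslinked. Thrombospondins (Thbs1, Thbs2) and osteopontin (Spp1) act more as signals, through receptors such as CD36, CD47, CD44 and integrins, while cochlin (Coch) and the ABI family binding protein Abi3bp are less studied in skin.

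The sequence just upstream of the transcription start is shown for 4 genes whose groups separated in at least 1 comparison, because they differ in composition. It is from RefSeq on GRCm38.p6, a build other than the GRCm39 named for the counts, and spans 100 bases ending at the base before the start, 5′ to 3′ on the strand of the gene. The table held 9 starts for 6 of the 9 genes and none for Abi3bp, Fn1 and Thbs1. Tnc, with 2 of these starts, is not shown, though its UVB_hCOL3A1 libraries lay above NoUVB (lowest 74.1, highest NoUVB 72.6 CPM). Capitals mark matches, on either strand, to the TATA forms TATAAA and TATATAA (which overlap in Postn), the AP-1 form TGANTCA, the GC box GGGCGG and CCAAT.
Coch, chr12:51593241-51593340, plus strand: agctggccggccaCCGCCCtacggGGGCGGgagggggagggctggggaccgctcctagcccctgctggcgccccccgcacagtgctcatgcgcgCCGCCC
Postn, chr3:54361007-54361106, plus strand: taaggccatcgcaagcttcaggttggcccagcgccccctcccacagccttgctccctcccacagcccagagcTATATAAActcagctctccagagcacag
Thbs2, chr17:14694263-14694362, minus strand: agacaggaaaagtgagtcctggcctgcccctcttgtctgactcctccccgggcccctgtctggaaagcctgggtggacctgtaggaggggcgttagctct
Tnxb, chr17:34670435-34670534, plus strand: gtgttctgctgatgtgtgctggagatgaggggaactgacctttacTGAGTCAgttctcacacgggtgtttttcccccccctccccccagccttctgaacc

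The Coch window was 80% G or C, above 96% of the 32851 promoters in the table, whose median was 55%, and it held 3 GC boxes. The Postn window shown, that of 1 of its 2 starts in the table, was 60% G or C and carried TATATAA 28 bases before the start. The window of the other Postn start (chr3:54359167-54359266) was 32% G or C, with 3.07% of promoters lower, and held none of these motifs. The 7 letters of TATATAA occurred in the same 100 bases of 1.39% of all promoters, TATAAA in 5.56%, TGANTCA in 2.73%, CCAAT in 18.9% and GGGCGG in 24.7%. TATATAA was also found 29 bases before 1 of the 2 Tnc starts. The Tnxb window held 1 AP-1 match and the Thbs2 window held no match to these letters. These matches describe the letters only.

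Library totals ran from 7640172 to 12927411 estimated counts, of which the ribosomal gene Rn18s-rs5 took 7.71% in NoUVB 2 and 34.3% to 55.3% in the other 8 libraries. Levels are counts scaled to library size (CPM) after TMM scaling, which adjusts each library for its composition. Keratinocyte markers summed to 6749 to 10988 CPM and fibroblast markers to 4381 to 6745 CPM in every library, so both main cell types of skin were present. On the main axis of variation (principal component 1), UVB_Saline 3 at 55 and UVB_hCOL3A1 3 at 39.8 stood apart from the other 7 libraries at -33.5 to 10. UVB_Saline 1 was the lowest library for the mean log2 level of fibroblast, macrophage and skeletal muscle markers. In bulk skin, fewer cells of a type and less RNA per cell cannot be told apart.

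**Figure D1:**
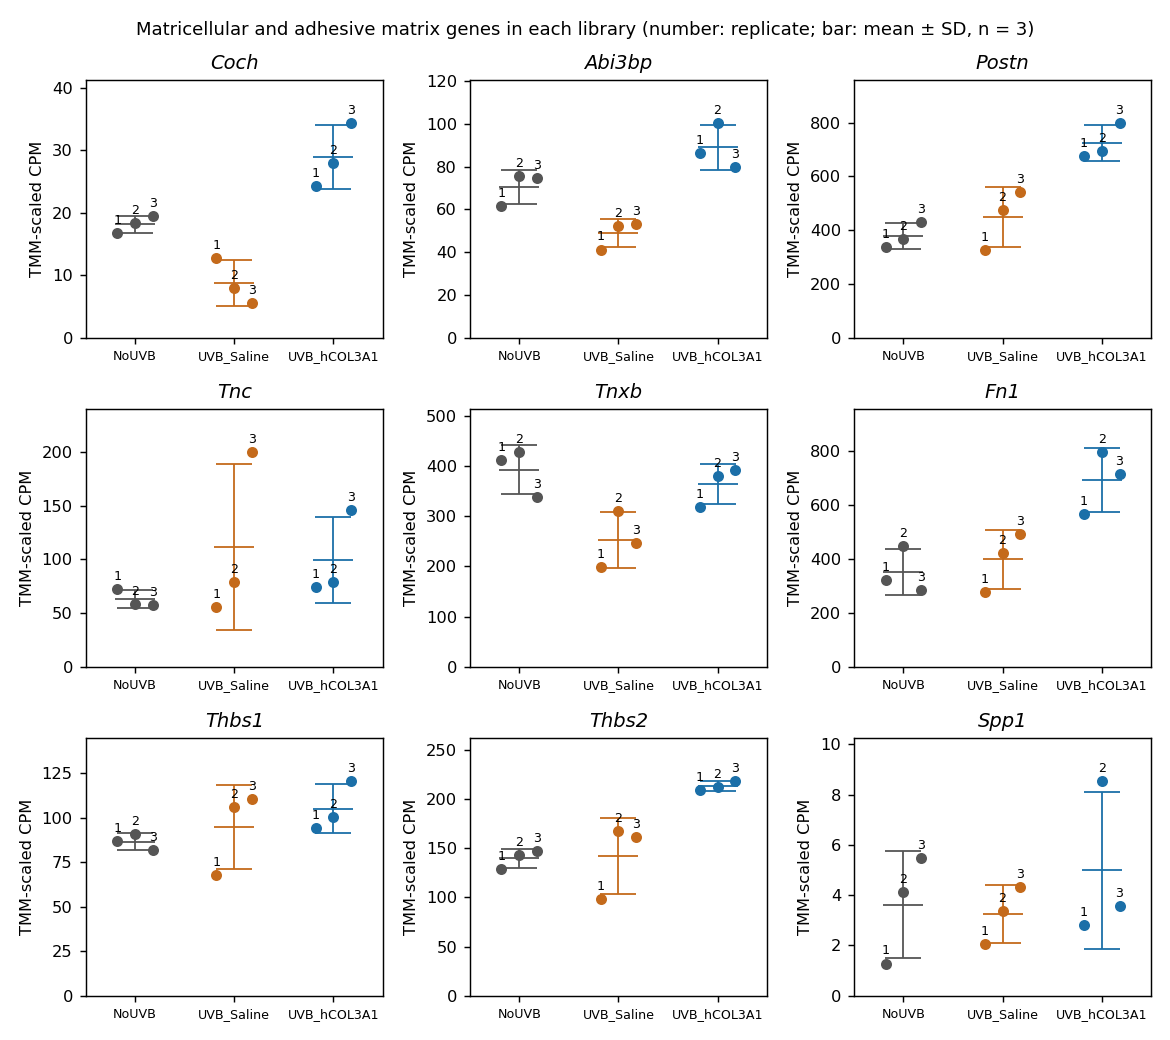
TMM-scaled CPM (vertical axes, linear from 0) of each gene in the 9 libraries, by group. Numbered points are replicates, and bars are the mean ± SD of 3. Coch lies lowest in the 3 UVB_Saline libraries (5.64 to 12.7) and highest in the 3 UVB_hCOL3A1 libraries (24.3 to 34.4), while Tnc is spread by the replicates numbered 3.

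Coch encodes cochlin, a secreted protein with von Willebrand A domains known best from the inner ear. Among the 9 genes it had the largest fitted difference between UVB_hCOL3A1 and UVB_Saline, the contrast in which it had already stood out. UVB_hCOL3A1 lay farther from NoUVB on the log2 scale for Fn1 (0.98) and Postn (0.93) than for Coch (0.66). The Coch level was 16.8, 18.3 and 19.5 CPM in the NoUVB libraries, 12.7, 7.97 and 5.64 CPM in UVB_Saline and 24.3, 28.0 and 34.4 CPM in UVB_hCOL3A1. The 3 groups did not overlap, with NoUVB between the others. These levels rested on 118 to 205, 52 to 124 and 298 to 319 counts per library. Means were 18.2 ± 1.39, 8.78 ± 3.61 and 28.9 ± 5.11 CPM (SD, n = 3 each).

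The fitted log2 difference of Coch between UVB_Saline and NoUVB was -1.05 ± 0.25 (SE), with an adjusted p of 0.302 by edgeR's quasi-likelihood test. Between UVB_hCOL3A1 and NoUVB it was 0.66 ± 0.24, with an adjusted p of 0.326. Neither passed 0.05. The mean of the 2 irradiated groups lay close to NoUVB, at -0.19 ± 0.21 (95% interval -0.67 to 0.28, adjusted p 0.778), since the irradiated groups lay on opposite sides of it. Without UVB_Saline 1, the UVB_Saline library nearest NoUVB, the UVB_Saline difference was -1.41 with an adjusted p of 0.0467 in edgeR. DESeq2 gave it an adjusted p of 0.0235 with all libraries. No other alternative passed for this difference, and the adjusted p reached 0.764. Each contrast of 1 irradiated group with NoUVB shares that group with the contrast in which Coch had stood out. Their p-values are therefore not independent of how the gene was chosen. The difference between UVB_hCOL3A1 and UVB_Saline, where the gene had stood out before, was 1.72 ± 0.25 on the log2 scale.

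Abi3bp, a secreted matrix protein named for its binding to an ABI family adaptor, had the same order of groups at a higher level and a smaller spread. It stood at 61.5, 75.5 and 74.8 CPM in NoUVB, 41.3, 52.4 and 53.1 CPM in UVB_Saline, and 86.5, 100.5 and 80.0 CPM in UVB_hCOL3A1. Again no library of any group overlapped another group. Means were 70.6 ± 7.91, 48.9 ± 6.64 and 89.0 ± 10.5 CPM. The log2 difference from NoUVB was -0.53 ± 0.13 for UVB_Saline (adjusted p 0.302) and 0.33 ± 0.13 for UVB_hCOL3A1 (adjusted p 0.362), and neither passed. The irradiated mean differed from NoUVB by -0.10 ± 0.11 (adjusted p 0.79), and UVB_hCOL3A1 exceeded UVB_Saline by 0.86 ± 0.13.

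Fibroblast markers followed the same order of groups as Coch and Abi3bp in part. Their 10 genes, among them Pdgfra, Dpt, Dcn and Col1a1, summed to 4837 to 5714 CPM in NoUVB, 4381 to 4606 CPM in UVB_Saline and 5471 to 6745 CPM in UVB_hCOL3A1. All 10 had a positive log2 difference in UVB_hCOL3A1 against UVB_Saline (median 0.78), where 46.1% of all genes were positive. In UVB_Saline against NoUVB 9 of 10 had a negative one (median -0.35), where 51.8% of all genes were positive. None of the 10 passed the adjusted test. Lymphatic endothelium markers summed to 146 to 180, 111 to 135 and 166 to 178 CPM in the same groups, and adipocyte markers to 618 to 1464, 466 to 664 and 775 to 1204 CPM. Skeletal muscle markers summed to 1228 to 3747, 732 to 3026 and 3132 to 4666 CPM. Marker sums of the other lists apart from platelets overlapped between UVB_Saline and UVB_hCOL3A1, though all 10 macrophage markers had a positive difference (median 0.65) and all 8 keratinocyte markers a negative one (median -0.32). None of the markers in these lists passed, in a fit that called at most 0.0408% of all genes in any contrast. The part of these cell types in the differences of Coch, Abi3bp and the other genes was not tested.

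Postn, the gene of periostin, which binds collagen I and integrins and is abundant in healing skin, was the most abundant of the 9 per kilobase of transcript. Its level was 338.6, 367 and 431 CPM in NoUVB, 328, 476 and 543 CPM in UVB_Saline and 676, 694 and 799 CPM in UVB_hCOL3A1. All 3 UVB_hCOL3A1 libraries lay above every other library, and UVB_Saline overlapped NoUVB. Means were 379 ± 47.4, 449 ± 109.8 and 723 ± 66.5 CPM.

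Among the 9 genes Postn had the smallest p for the irradiated mean against NoUVB. With 3 libraries per group and an equal spread, that contrast is independent of the difference between the irradiated groups. The Postn SD was 109.8 CPM in UVB_Saline and 66.5 CPM in UVB_hCOL3A1, and the genes and tests were chosen with earlier results known. The irradiated mean exceeded NoUVB by 0.59 ± 0.15 on the log2 scale (1.503-fold, 95% interval 0.25 to 0.93). This difference had an adjusted p of 0.26, so it did not pass. DESeq2 gave it an adjusted p of 0.0366, and edgeR without UVB_Saline 1, where the groups are no longer of equal size, gave 0.0268. It did not pass in the other alternatives, voom (0.273) among them. By group, Postn differed from NoUVB by 0.24 ± 0.17 in UVB_Saline (adjusted p 0.703) and by 0.93 ± 0.17 in UVB_hCOL3A1 (adjusted p 0.117). The second passed in DESeq2 (adjusted p 0.000316) and in the edgeR fit of only those 2 groups (adjusted p 0.0031). In edgeR it also passed without UVB_Saline 1 (0.00865) or UVB_Saline 3 (0.0125) and with a replicate block (0.0225). It did not pass in the other alternatives. These included voom (0.113), library size alone (0.496) and leaving out any NoUVB or UVB_hCOL3A1 library. UVB_hCOL3A1 exceeded UVB_Saline by 0.69 ± 0.17.

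Fn1, fibronectin, had a profile like that of Postn. It stood at 322, 449 and 283 CPM in NoUVB, 279, 423 and 492 CPM in UVB_Saline and 566, 798 and 716 CPM in UVB_hCOL3A1, so that the last group lay above all other libraries. Means were 351 ± 86.8, 398 ± 109 and 693 ± 118 CPM. The irradiated mean differed from NoUVB by 0.58 ± 0.21 (adjusted p 0.4), UVB_Saline by 0.18 ± 0.24 (adjusted p 0.854) and UVB_hCOL3A1 by 0.98 ± 0.24 (adjusted p 0.184). None passed in the main edgeR fit of all 9 libraries. For the last, DESeq2 gave an adjusted p of 0.00714 and the edgeR fit of 2 groups gave 0.0443. No other alternative passed, voom (0.167) among them. The difference between UVB_hCOL3A1 and UVB_Saline was 0.80 ± 0.24. In GENCODE M21, Fn1 shares 292 exon bases with Apol7d on the opposite strand, and the strand setting of the counting is not given in the sources used here.

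Macrophages, another source of fibronectin and a main source of osteopontin in inflamed tissue, were followed by 10 markers such as Adgre1, Csf1r and C1qa. These summed to 503 to 504 CPM in NoUVB, 295 to 766 CPM in UVB_Saline and 637 to 936 CPM in UVB_hCOL3A1. UVB_Saline 1 had the lowest sum, and it was also the lowest UVB_Saline library for each of the 9 genes but Coch. Whether this marker level bears on those genes was not tested.

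**Figure D2:**
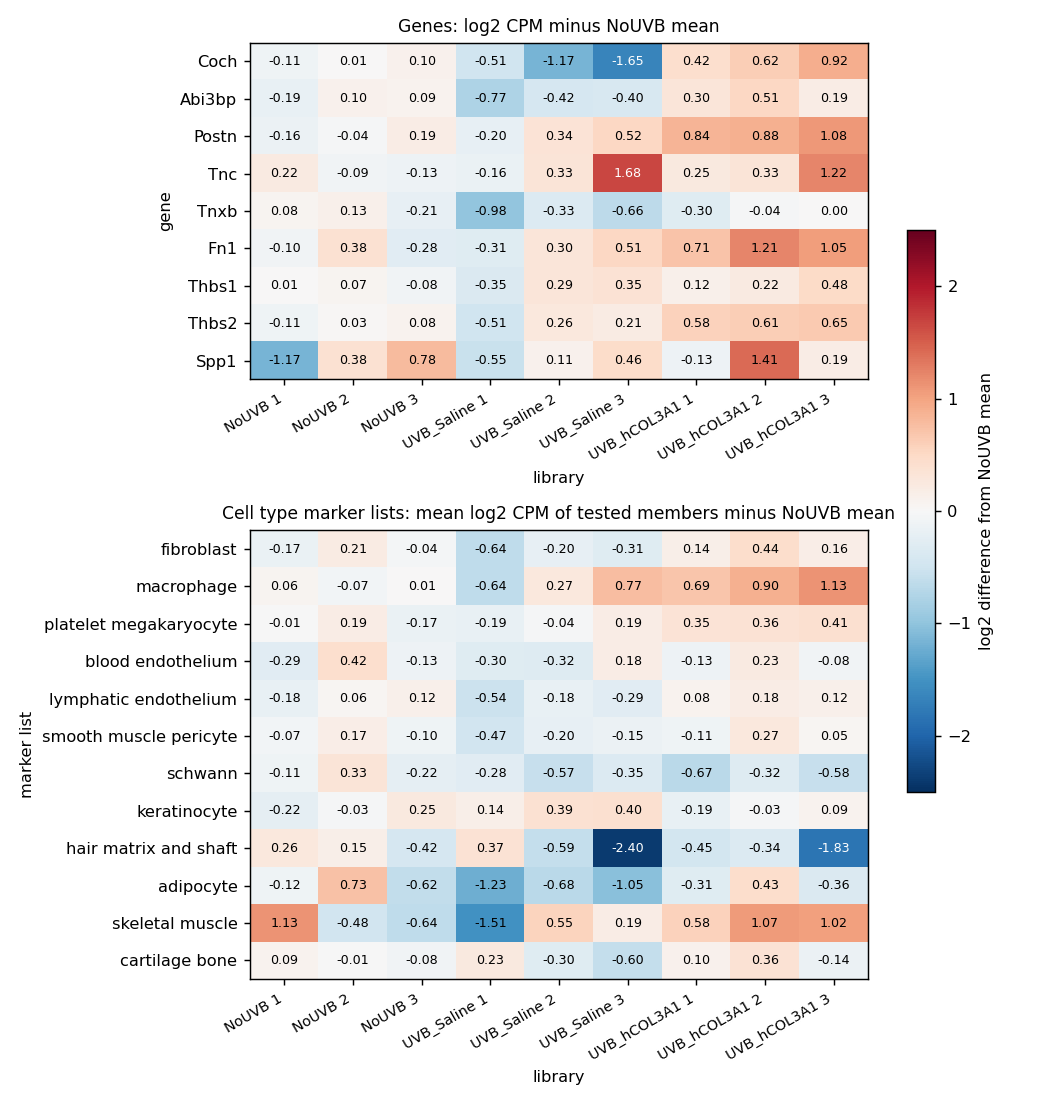
Log2 CPM of the 9 genes (upper grid) and mean log2 CPM of the tested members of 12 cell type marker lists (lower grid) in each library, minus the NoUVB mean; red is above and blue below it, and the numbers are the plotted values. UVB_Saline 1 is below the NoUVB mean for all 9 genes and for most marker lists, including fibroblast and macrophage (-0.64 each).

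The tenascins had unlike patterns. Tnc encodes tenascin-C, which is sparse in resting skin and abundant in wound beds, and its levels were 72.6, 58.6 and 57.2 CPM in NoUVB, 55.7, 78.6 and 200.1 CPM in UVB_Saline and 74.1, 78.5 and 146 CPM in UVB_hCOL3A1. The high values were those of UVB_Saline 3 and UVB_hCOL3A1 3, the libraries that stood apart on the main axis. Hair matrix and shaft markers were low in the same libraries, at 396 and 719 CPM against 1674 to 3195 CPM in the other 7, and their part in the Tnc levels was not tested. The other 4 irradiated libraries lay between 55.7 and 78.6 CPM, around the NoUVB range. Means were 62.8 ± 8.498, 111 ± 77.6 and 99.4 ± 40.1 CPM.

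No Tnc difference passed. The irradiated mean exceeded NoUVB by 0.75 ± 0.44 (adjusted p 0.611), UVB_Saline by 0.83 ± 0.49 (adjusted p 0.656) and UVB_hCOL3A1 by 0.66 ± 0.49 (adjusted p 0.65). Leaving out 1 library at a time moved the UVB_Saline difference between 0.09, without UVB_Saline 3, and 1.15. Of 3 keratins induced in wounded epidermis, Krt16 and Krt6a were high in the same libraries and Krt17 was not high in both. Krt16 was 49.0, 93.2 and 1443 CPM in UVB_Saline and 46.3, 57.9 and 255 CPM in UVB_hCOL3A1, against 49.9 to 70.2 CPM in NoUVB, and Krt6a was 928 and 249.02 CPM in UVB_Saline 3 and UVB_hCOL3A1 3, against 119 to 195 CPM elsewhere. Krt17 was 453 CPM in UVB_Saline 3 but 282 CPM in UVB_hCOL3A1 3, just below the NoUVB range of 284 to 389 CPM. The part of wounded epidermis in the Tnc levels was not tested. The difference between UVB_hCOL3A1 and UVB_Saline was -0.17 ± 0.49 for Tnc, the one negative value among the 9 genes, and 0.58 without UVB_Saline 3.

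Tnxb encodes tenascin-X, a constant component of dermal collagen whose loss gives a form of Ehlers-Danlos syndrome. It stood at 412, 429 and 338 CPM in NoUVB, 199, 310.1 and 247 CPM in UVB_Saline and 318, 381 and 392 CPM in UVB_hCOL3A1. UVB_Saline lay below both other groups without overlap, and NoUVB and UVB_hCOL3A1 overlapped. Means were 393 ± 48.4, 252 ± 55.9 and 364 ± 39.7 CPM. The UVB_Saline difference from NoUVB was -0.64 ± 0.16 (adjusted p 0.305) and did not pass, while DESeq2 gave it an adjusted p of 0.0482. No other alternative passed, and edgeR with library size alone gave 0.86. The irradiated mean differed by -0.38 ± 0.14 (adjusted p 0.393) and UVB_hCOL3A1 by -0.11 ± 0.16 (adjusted p 0.829). UVB_hCOL3A1 exceeded UVB_Saline by 0.53 ± 0.16.

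The ratio of Tnc to Tnxb counts within a library needs no scaling between libraries. It was 0.176, 0.137 and 0.169 in NoUVB, 0.281, 0.253 and 0.808 in UVB_Saline and 0.233, 0.206 and 0.371 in UVB_hCOL3A1. All 6 irradiated libraries lay above the 3 unirradiated ones. This ratio was formed after the levels had been seen, so it carries no test.

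Thbs1 and Thbs2 encode thrombospondin-1 and thrombospondin-2, which restrain vessel growth, and the former also activates latent TGF-beta. Thbs1 stood at 86.9, 91.1 and 81.8 CPM in NoUVB, 67.7, 106 and 111 CPM in UVB_Saline and 94.1, 100.5 and 121 CPM in UVB_hCOL3A1. The UVB_hCOL3A1 libraries were above NoUVB by a narrow margin, 94.1 against 91.1 CPM, and the UVB_Saline libraries spanned both. Its differences from NoUVB were 0.21 ± 0.15 for the irradiated mean (adjusted p 0.676), 0.13 ± 0.17 for UVB_Saline (adjusted p 0.853) and 0.28 ± 0.17 for UVB_hCOL3A1 (adjusted p 0.566). UVB_hCOL3A1 differed from UVB_Saline by 0.15 ± 0.17.

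Thbs2 had a tighter pattern. Its levels were 129, 143 and 148 CPM in NoUVB, 98.2, 168 and 161 CPM in UVB_Saline and 209, 213 and 219 CPM in UVB_hCOL3A1. The UVB_hCOL3A1 libraries, with an SD of 5.01 CPM around a mean of 214, lay above all the others. The difference of this group from NoUVB was 0.61 ± 0.17 (adjusted p 0.215) and did not pass. It passed in the edgeR fit of only these groups (adjusted p 0.00643) and without UVB_Saline 1 (0.0126). The other alternatives did not pass, DESeq2 (0.0587) and voom (0.216) among them. UVB_Saline differed from NoUVB by 0.03 ± 0.17 (adjusted p 0.978) and the irradiated mean by 0.32 ± 0.15 (adjusted p 0.502). The UVB_hCOL3A1 excess over UVB_Saline was 0.59 ± 0.17, and 0.38 without UVB_Saline 1.

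Counts of Thbs2 over Thbs1 were 1.49, 1.57 and 1.80 in NoUVB, 1.45, 1.58 and 1.46 in UVB_Saline and 2.22, 2.12 and 1.81 in UVB_hCOL3A1. UVB_hCOL3A1 was the highest group, though its lowest library, 1.81, was near the highest NoUVB library. Like that of Tnc to Tnxb, this ratio was formed after the levels had been seen, so it carries no test. Platelets carry thrombospondin-1, and platelet markers were low: their 6 genes summed to 10.5 to 13.0 CPM in NoUVB, 10.7 to 15.8 CPM in UVB_Saline and 16.8 to 18.7 CPM in UVB_hCOL3A1, and Ppbp, Gp9 and Treml1 did not exceed 4 counts in any library. Of the 3 platelet markers that could be tested, 1 was higher in UVB_hCOL3A1 than in NoUVB (log2 difference 1.45) and 2 were lower (lowest -0.26). The higher sum in UVB_hCOL3A1 therefore does not stand for the list as a whole. The part of platelets in the Thbs1 levels was not tested.

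Spp1, osteopontin, a phosphoprotein and cytokine that binds integrins and CD44, was the scarcest of the 9. It had 9, 46 and 57 counts in NoUVB, 20, 41 and 40 in UVB_Saline and 37, 91 and 33 in UVB_hCOL3A1, or 1.28, 4.11 and 5.48, then 2.05, 3.37 and 4.34, then 2.82, 8.56 and 3.56 CPM. All groups overlapped, and the spread within a group was as wide as any difference between groups. Its differences from NoUVB were 0.11 ± 0.48 for the irradiated mean (95% interval -0.98 to 1.19, adjusted p 0.963), -0.20 ± 0.56 for UVB_Saline (adjusted p 0.942) and 0.41 ± 0.54 for UVB_hCOL3A1 (adjusted p 0.813). UVB_hCOL3A1 differed from UVB_Saline by 0.61 ± 0.55. Its exons share 309 bases with Gm42793 on the same strand in GENCODE M21. Of 8 bone and cartilage markers, Bglap, Bglap2 and Matn1 were at 0 and Col2a1 reached 5 counts, while Acan, Alpl, Runx2 and Sox9 were present, Sox9 at up to 71.0 CPM. Their part in the Spp1 levels was not tested.

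**Figure D3:**
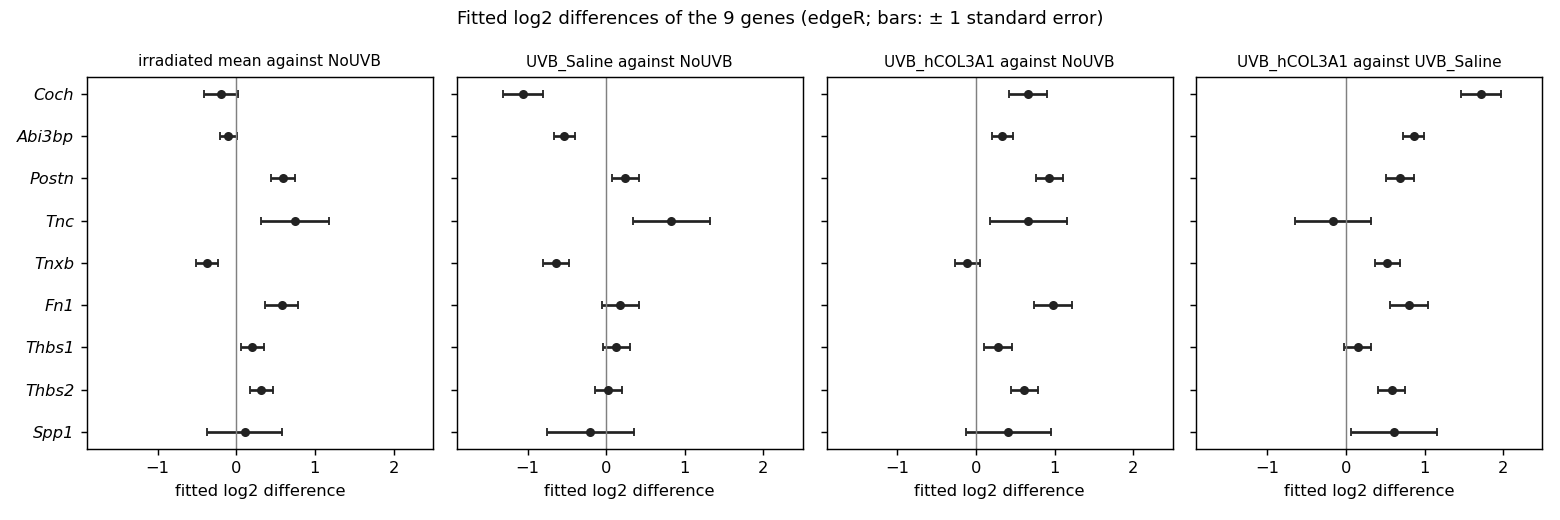
Fitted log2 differences of the 9 genes in 4 contrasts (horizontal axes), with bars of ± 1 standard error from the edgeR fit of 9 libraries. Postn, Fn1, Tnc, Thbs1 and Thbs2 are to the right of 0 and Tnxb to the left of it in all 3 contrasts with NoUVB, and Coch lies at -1.05 in UVB_Saline and 0.66 in UVB_hCOL3A1.

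Counted over the 9 genes, edgeR called 0 for the irradiated mean against NoUVB, where it called 0.0116% of 17168 genes. At an unadjusted p under 0.05 it marked 3 of the 9, Postn and Fn1 higher and Tnxb lower, against 10.4% of all genes. DESeq2 called 1 (Postn; 0.981% of all genes) and limma voom 0 (0.00582%). The median log2 difference was 0.21 over the 9 genes and 0.0026 over all.

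For UVB_Saline against NoUVB, edgeR called 0 of the 9 (0.0175% of all genes), DESeq2 called Coch and Tnxb lower (0.706%) and voom called 0 (0.0116%). Unadjusted p was under 0.05 for 3 of the 9, Coch, Abi3bp and Tnxb, all lower (9.54% of all genes). The same 3 genes had no overlap between the groups, and 6.61% of all genes were lower in that sense. The median over the 9 genes was 0.03, with 5 positive and 4 negative values, beside 0.011 over all genes.

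For UVB_hCOL3A1 against NoUVB, edgeR called 0 of the 9 (0.0408% of all genes), DESeq2 called Postn and Fn1 (1.73%) and voom 0 (0%). Unadjusted p was under 0.05 for Coch, Abi3bp, Postn, Fn1 and Thbs2, all higher (11.8% of all genes in either direction). The fit of only these 2 groups called Coch, Postn, Fn1 and Thbs2 (2.47%), with adjusted p of 0.0392 for Coch. Groups did not overlap for 7 of the 9, all higher, against 10.7% of all genes, and of these Tnc and Thbs1 separated by under 4 CPM. The median was 0.61 over the 9 genes and -0.0051 over all. Both contrasts with NoUVB share those 3 libraries, and each shares an irradiated group with the contrast in which Coch and Abi3bp had stood out.

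For UVB_hCOL3A1 against UVB_Saline, edgeR called 0% of all genes, and no calls are given for the 9, since results of this contrast were known when they were picked. Groups did not overlap for 6 of the 9, all higher (8.95% of all genes), and nothing is read from that share. The median was 0.61 over the 9 genes and -0.0235 over all genes.

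These counts depended on single libraries. For UVB_hCOL3A1 against NoUVB, edgeR called 0 genes without any 1 of the NoUVB libraries, UVB_hCOL3A1 1 or UVB_hCOL3A1 2. Counts rose without UVB_Saline 1 or UVB_Saline 3, which enter that contrast only through the joint fit. The Postn value in it was 0.93 with and without UVB_Saline 1, while its SE was 0.17 and 0.12. Without UVB_Saline 1, edgeR called 69 genes for the irradiated mean, 12 for UVB_Saline and 144 for UVB_hCOL3A1 against NoUVB, in place of 2, 3 and 7. Among them were Postn, then Coch, then Postn and Thbs2. Without UVB_Saline 3 it called 23, 5 and 242 genes, with Postn among the last.

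Per kilobase of the longest coding transcript, Postn led in each group at 118, 140.0 and 226 CPM per kb for NoUVB, UVB_Saline and UVB_hCOL3A1, followed by Fn1 at 42.3, 47.9 and 83.3. In NoUVB the order went on with Tnxb (32.2), Thbs2 (23.7), Thbs1 (14.8), Abi3bp (13.6), Tnc (8.84), Coch (6.79) and Spp1 (2.40 CPM per kb). Libraries of neighbours in that order overlapped for Fn1 and Tnxb and for Thbs1 and Abi3bp only. In UVB_Saline, Tnxb (20.6) and Thbs2 (24.2) changed places, as did Tnc (15.7) and Abi3bp (9.41), and every neighbour from Thbs2 down to Abi3bp overlapped. Coch (3.28) also overlapped Spp1 (2.16). In UVB_hCOL3A1, Thbs2 (36.2) stood above Tnxb (29.8) without overlap, and Thbs1, Abi3bp, Tnc and Coch overlapped from one to the next between 17.98 and 10.8 CPM per kb.

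Likeness of profile was measured as the root mean square difference of log2 CPM over the 9 libraries, each gene centred on its own mean. Among the 9 genes the closest pair was Postn and Thbs2 (0.164), then Thbs1 and Thbs2 (0.219) and Postn and Fn1 (0.246), and the farthest was Coch and Tnc (1.11). Over 12979 other genes, the profiles closest to Coch were Pdgfrl, Avpr1a and Efemp1 at 0.401 to 0.431, beside a median gene at 0.82. No gene came as close to Coch as the nearest ones did to Postn (Adam12, Rassf4 and Rgs19, 0.089 to 0.0913) or Abi3bp (Pcolce, 0.089). This measure grows with a gene's own spread, and the SD of log2 CPM was 0.834 for Coch, 0.476 for Postn and 0.408 for Abi3bp. The median gene was at 0.494 from Postn and 0.443 from Abi3bp. Fn1 was nearest to Loxl1 (0.102) and Emilin2 (0.117), Thbs2 to Lox (0.0987), Thbs1 to Mgat1 (0.0836) and Tnxb to Rnase4 (0.11) and Aebp1 (0.122). Tnc was nearest to Parp14 (0.152) and Parp9 (0.154), and Spp1 to Acaa1b (0.329).

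Other genes of the same system were counted in 3 lists. Of 25 further matricellular genes, 20 could be tested and 0 were called in any contrast, where at most 0.0408% of all genes were called. Their median log2 difference was -0.05 for the irradiated mean, -0.18 for UVB_Saline and 0.04 for UVB_hCOL3A1 against NoUVB, beside 0.21, 0.03 and 0.61 for the 9 genes. The smallest p for the irradiated mean were those of Ccn1, an integrin ligand, at -0.88 ± 0.18 (adjusted p 0.181), the proteoglycan Spock2 at -0.78 ± 0.18 (0.197) and Ccn5 at 0.75 ± 0.19 (0.248). Ccn1 averaged 45.99 ± 15.99 CPM in NoUVB and 25.6 ± 3.26 and 24.6 ± 2.80 CPM in the irradiated groups.

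In UVB_hCOL3A1 against UVB_Saline, 16 of these 20 genes were positive (median 0.33), beside 46.1% of all genes. Groups did not overlap for 8 of them, all higher (8.95% of all genes). The largest values were those of Ccn3 (0.88 ± 0.33), the galectin Lgals1 (0.78 ± 0.20) and Thbs3 (0.71 ± 0.17). Of 24 further adhesive glycoproteins, 22 were tested and 0 were called, again beside at most 0.0408% of all genes in any contrast. Here 19 were positive in the same contrast (median 0.31), 8 of them without overlap and all higher (again beside 8.95%), led by Ecm2 (1.00 ± 0.24), the hyaluronan-binding Tnfaip6 (0.95 ± 0.42) and Srpx (0.93 ± 0.22). Against NoUVB their medians were -0.03 for the irradiated mean, -0.20 for UVB_Saline and 0.21 for UVB_hCOL3A1. For the irradiated mean the smallest p were those of Aebp1 at -0.37 ± 0.11 (adjusted p 0.293), Npnt at 0.39 ± 0.12 (0.293) and Matn4 at 0.72 ± 0.26 (0.383). Aebp1, a collagen-binding protein, averaged 258 ± 6.15 CPM in NoUVB, 156 ± 24.1 CPM in UVB_Saline and 256 ± 33.3 CPM in UVB_hCOL3A1.

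The 27 receptors for matrix proteins, integrins, syndecans and others, were all tested. Of these 0 were called, beside at most 0.0408% of all genes in any contrast. In UVB_hCOL3A1 against UVB_Saline, 17 were positive and 10 negative (median 0.15), with 46.1% of all genes positive. Groups did not overlap for 5 higher and for 7 lower receptors, beside 8.95% and 8.33% of all genes in those directions. The syndecan Sdc3 had the largest value (0.88 ± 0.19), followed by the thrombospondin receptor Cd36 (0.80 ± 0.36) and Sdc2 (0.74 ± 0.12). Sdc3 averaged 39.0 ± 3.66 CPM in NoUVB, 51.7 ± 15.8 CPM in UVB_Saline and 95.2 ± 11.2 CPM in UVB_hCOL3A1. For the irradiated mean it stood at 0.85 ± 0.17 (adjusted p 0.176), ahead of the osteopontin and hyaluronan receptor Cd44 at 0.33 ± 0.11 (0.346) and Itgb6 at 0.36 ± 0.14 (0.414).

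**Figure D4:**
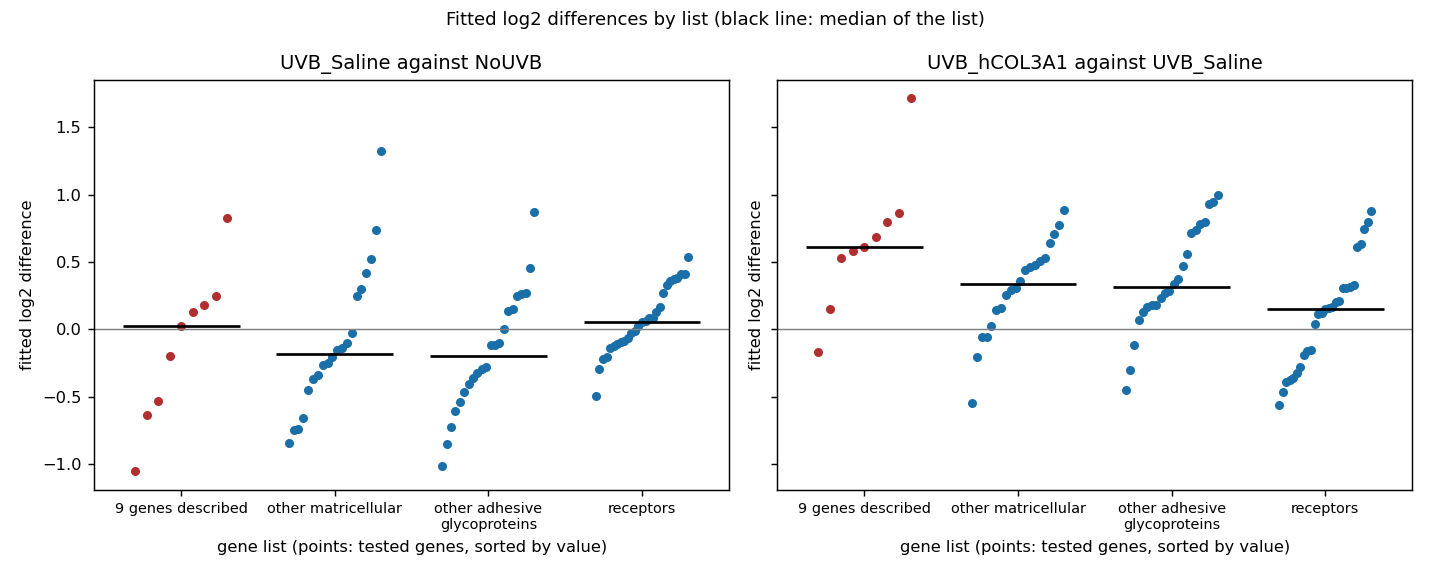
Fitted log2 differences (vertical axis) of each tested gene of the 9 described and of the 3 further lists, in UVB_Saline against NoUVB (left) and UVB_hCOL3A1 against UVB_Saline (right), sorted within a list, with the list median as a line. In the right panel the 9 genes have a median of 0.61 and Coch is the highest point at 1.72, and the receptor list is centred on 0.15.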

How the data were processed

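Total RNA of mouse skin (TRIzol) was sequenced in paired reads of 150 bp on an Illumina platform, per the labels. The authors deposited 1 table of estimated counts (expected counts) of 57180 genes. Per the submitters' processing notes, the build was GRCm39 and the tools included RSEM 1.3.3, the aligners STAR 2.7.11b and Bowtie2 2.5.4, the trimmer fastp 0.23.4 and also DESeq2 1.44.0. Neither the annotation nor the strand setting is given there. Groups and replicate numbers came from the titles. The 9 genes, the lists and the tests were chosen with earlier results of these data known. All 9 genes are named, and from each list up to 3 genes with the smallest p for the irradiated mean and up to 3 with the largest difference between UVB_hCOL3A1 and UVB_Saline, at an average log2 CPM of at least 1.

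Estimated counts, of which 11.1% to 14.0% per library were not whole, were rounded. In R 4.3.3, edgeR 4.0.16 kept 17168 genes by filterByExpr, scaled them by TMM and fitted all 9 libraries in 1 robust quasi-likelihood model (6 residual degrees of freedom, with a common coefficient of biological variation of 0.193). The 4 contrasts were tested two-sided with Benjamini-Hochberg adjustment over all genes kept, at 0.05. The irradiated mean is the mean of both irradiated groups. Alternatives were other scalings and filters, DESeq2 1.42.0, voom in limma 3.58.1, a fit of 2 groups, a replicate block, removal of 29 ribosomal RNA genes and leaving out each library. The test was tried on simulated counts. Log2 profiles used a prior count of 2. Transcript lengths are from GENCODE M21 and promoters from RefSeq, both on GRCm38. All libraries carry 1 batch label, and no 2 libraries were identical. Estimated counts can share reads among overlapping genes. Besides Fn1 and Spp1, Thbs1 shares 208 exon bases with Gm29233, Tnc 176 with 8030451A03Rik and Tnxb 3 with Cyp21a2-ps, all on the opposite strand. Tnc counts were not whole in any library, and those of Fn1 and Spp1 were whole in all.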

Additional observations from a re-analysis of the deposited data

How the results depend on the processing

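Spp1 rested on 9 to 91 counts per library, and its standard error (0.48 for the irradiated mean) was near that of the deeper Tnc (0.44), so depth and spread between libraries were not separated. Over the 9 genes and the 3 contrasts with NoUVB, 447 alternative values kept direction and side of the threshold, 16 gained a call and 14 changed sign. In UVB_hCOL3A1 against UVB_Saline, which carries no test for these genes, 158 kept their sign and 4 did not. Genes called for the irradiated mean, UVB_Saline and UVB_hCOL3A1 against NoUVB and UVB_hCOL3A1 against UVB_Saline numbered 2, 3, 7 and 0. They numbered 138, 100, 159 and 30 with library size alone, 120, 73, 178 and 106 with no filter on low counts, and 166, 100, 269 and 173 in DESeq2. Voom called 1, 2, 0 and 0, and the fit of only 2 groups called 407 for UVB_hCOL3A1 against NoUVB. Leaving out 1 library at a time gave 0 to 69, 0 to 12, 0 to 242 and 0 to 78 genes, and, in the 3 contrasts with NoUVB, 0 to 1, 0 to 1 and 0 to 2 of the 9 genes.

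Among the 9 genes, where edgeR called 0 in the contrasts with NoUVB, no filter called 1 in UVB_Saline (Abi3bp). DESeq2 called 1, 2 and 2 in the 3 contrasts, and the fit of 2 groups called 4 for UVB_hCOL3A1 against NoUVB. Library size alone shifted the median of all genes by up to -0.12 (UVB_hCOL3A1 against NoUVB).

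Signs changed as follows. With library size alone Spp1 had -0.038 for the irradiated mean and Thbs2 -0.049 for UVB_Saline, where voom gave -0.012. Leaving out 1 library at a time, the ranges were -0.25 to 0.51 for Spp1 in the irradiated mean, -0.57 to 0.19 in UVB_Saline and -0.23 to 0.82 in UVB_hCOL3A1 against NoUVB. For UVB_Saline against NoUVB they were -0.0145 to 0.39 for Fn1, -0.0061 to 0.32 for Thbs1 and -0.11 to 0.23 for Thbs2. In UVB_hCOL3A1 against UVB_Saline, Thbs1 went from 0.15 to -0.04 without UVB_Saline 1, Spp1 from 0.61 to -0.04 without UVB_hCOL3A1 2, and Tnc from -0.17 to 0.58 without UVB_Saline 3 and to 0.03 without UVB_hCOL3A1 1. The cause of these changes was not tested.

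Samples with the same replicate number correlated in their deviations from group means at 0.0181 to 0.41, and samples with different numbers at -0.389 to 0.257. Whether a replicate number marks anything shared is not stated in the labels and cannot be told from these values. With a replicate block, edgeR called 51, 61, 118 and 74 genes in the 4 contrasts, with Postn (adjusted p 0.0225) as 1 of the 9 genes for UVB_hCOL3A1 against NoUVB.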
